A study of Mus musculus with 10 samples.

Results

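The start regions of Pparg and Cidea were examined for DNA methylation in mouse metaphase II oocytes, the mature eggs before fertilisation. The members are all promoter windows of 2000 bp whose centre lay within 200 bp of an mm10 start of either gene. Starts were those of RefSeq and the gene boundaries, and starts of other annotations were not searched. This rule gave 3 of 49705 windows listed in at least 1 table: 2 at Pparg, at separate starts, and 1 at Cidea. The genes were chosen by the methylation levels of these windows in the 3 pools, so levels and differences are given as a description with no test.

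The oocytes came from 2-month Tet2KO females (3 libraries), 11-month wild-type (WT) females (3 libraries) and 2-month WT females (4 libraries), all of a C57BL6/129 background. Tet2 encodes an enzyme that oxidises methylated cytosine, and the labels used here do not describe the knockout allele. The number of oocytes behind a library is unclear, because the series text speaks of 10 and the extraction text of 1. Each table holds 1 pooled value per window and group, so no spread between animals or libraries could be measured, and 95% intervals below cover counting error of the calls only. PCR copies and neighbouring CpGs of a read are not independent calls.

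Pparg encodes PPAR gamma, a nuclear receptor that pairs with a retinoid X receptor on DNA and drives fat cell formation and lipid storage. It is transcribed from several starts, and the RefSeq start farthest inside the gene gives the PPAR gamma 2 form typical of fat cells. In the ovary the gene is known mainly from granulosa cells. Cidea encodes a lipid droplet protein of brown fat that enlarges droplets, and it has been described as a PPAR target gene. Oocytes gain DNA methylation while they grow, mostly across transcribed gene bodies, and CpG-dense promoters usually stay free of it.

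The start sequences of Pparg are shown for their CpG content, since bisulfite calls are made at CpGs. The deposited counts are sums over windows of 2000 bp, so none is tied to a CpG shown here. The innermost start had no listed window near it. Each runs 5′ to 3′ on the plus strand from 250 bases before to 50 after a start, as given by RefSeq for build GRCm38.p6, the assembly that mm10 represents, and capitals mark CpG dinucleotides. The first lies at chr6:115360894-115361193, the second at chr6:115362099-115362398 and the innermost at chr6:115421816-115422115.
Pparg first start: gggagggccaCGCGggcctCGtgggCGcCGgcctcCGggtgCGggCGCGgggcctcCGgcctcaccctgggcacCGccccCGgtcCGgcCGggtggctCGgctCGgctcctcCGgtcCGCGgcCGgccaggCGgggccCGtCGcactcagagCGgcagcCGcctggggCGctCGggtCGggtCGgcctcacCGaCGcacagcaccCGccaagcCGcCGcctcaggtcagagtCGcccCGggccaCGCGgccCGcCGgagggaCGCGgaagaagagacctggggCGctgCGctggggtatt
Pparg second start: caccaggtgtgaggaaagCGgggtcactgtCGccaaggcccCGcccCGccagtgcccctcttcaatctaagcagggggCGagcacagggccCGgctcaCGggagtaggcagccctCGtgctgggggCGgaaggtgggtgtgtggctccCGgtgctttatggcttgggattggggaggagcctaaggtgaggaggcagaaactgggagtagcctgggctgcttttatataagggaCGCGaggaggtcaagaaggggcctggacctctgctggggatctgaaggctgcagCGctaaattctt
Pparg innermost start: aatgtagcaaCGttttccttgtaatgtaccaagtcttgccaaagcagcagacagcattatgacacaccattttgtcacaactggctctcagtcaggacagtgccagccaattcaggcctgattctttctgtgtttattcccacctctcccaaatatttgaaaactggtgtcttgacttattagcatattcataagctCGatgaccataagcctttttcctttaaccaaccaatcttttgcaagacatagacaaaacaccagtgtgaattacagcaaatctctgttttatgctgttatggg
The first start held 44 CpGs in 300 bases, a number reached by 2.25% of 32851 mouse promoters of the same length. The second held 13, reached by 37.9%, and the innermost held 2, against a median of 7 over all promoters. A GGGCGG box, searched on both strands and containing a CpG itself, occurred 1 time at the first start, 2 times at the second and was not found at the innermost, while 35.7% of promoters held one. TATAA occurred only at the second start, as 2 overlapping matches on opposite strands (24.9% of promoters held one). CCAAT occurred 1 time at the second and 2 times at the innermost start (37.4% of promoters held one). These matches describe the letters of these stretches and say nothing of factor binding.

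The windows cover these starts unequally. The first-start window of Pparg (chromosome 6, 115359951 to 115361950) has its centre 72 bp from the lower boundary of the gene and 193 bp from the RefSeq start. The second-start window (115361292 to 115363291) is centred 57 bp from its start, which lies 1.2 kb farther into the gene. The innermost RefSeq start, 60.9 kb inside the gene, had no window within 200 bp in any of the 3 tables, so the PPAR gamma 2 promoter was not analysed here. The Cidea window (chromosome 18, 67342564 to 67344563) is centred exactly on the lower boundary of the gene, for which RefSeq lists 1 transcript. A further window, centred 540 bp inside Cidea, lies outside the 200 bp limit. Its centre falls, to within 1 bp, on the upper boundary of B430212C06Rik, a lncRNA gene that reaches 540 bp into the Cidea gene, so it is given below under that name and not as an alternative Cidea start. The reference used for chromosome 18 gives no strand.

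At the first start of Pparg, methylation was 26.6% in Tet2KO (33 of 124 calls, Wilson 95% interval 19.6 to 35.0), 63.2% in 11-month WT (146 of 231 calls, 56.8 to 69.2) and 5.18% in 2-month WT (28 of 541 calls, 3.60 to 7.38). The 3 intervals do not overlap, and the order was 11-month WT, Tet2KO, 2-month WT from high to low. The calls lay on 57 CpG positions in Tet2KO, 95 in 11-month WT and 99 in 2-month WT. The Tet2KO level thus describes fewer of the CpGs of this window than the others do.

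At the second start of Pparg, methylation was 83.9% in Tet2KO (78 of 93 calls, 75.1 to 90.0), 53.9% in 11-month WT (166 of 308 calls, 48.3 to 59.4) and 12.4% in 2-month WT (38 of 306 calls, 9.18 to 16.6). Here Tet2KO and not 11-month WT was highest, and 2-month WT was again lowest. Covered positions numbered 37, 64 and 66 in that order of pools.

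At Cidea, methylation was 16.5% in Tet2KO (22 of 133 calls, 11.2 to 23.8), 53.4% in 11-month WT (140 of 262 calls, 47.4 to 59.4) and 7.11% in 2-month WT (16 of 225 calls, 4.42 to 11.2). The 11-month WT pool stood apart from both 2-month pools, whose intervals overlap narrowly. The B430212C06Rik window, which shares 1460 bp with that of Cidea and so most of its calls, was at 14.7% (129 calls) in Tet2KO, 53.75% (240 calls) in 11-month WT and 6.33% (221 calls) in 2-month WT. It is no independent measurement of the same pattern. Covered positions in the Cidea window were 45 in Tet2KO, 75 in 11-month WT and 65 in 2-month WT.

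**Figure D1:**
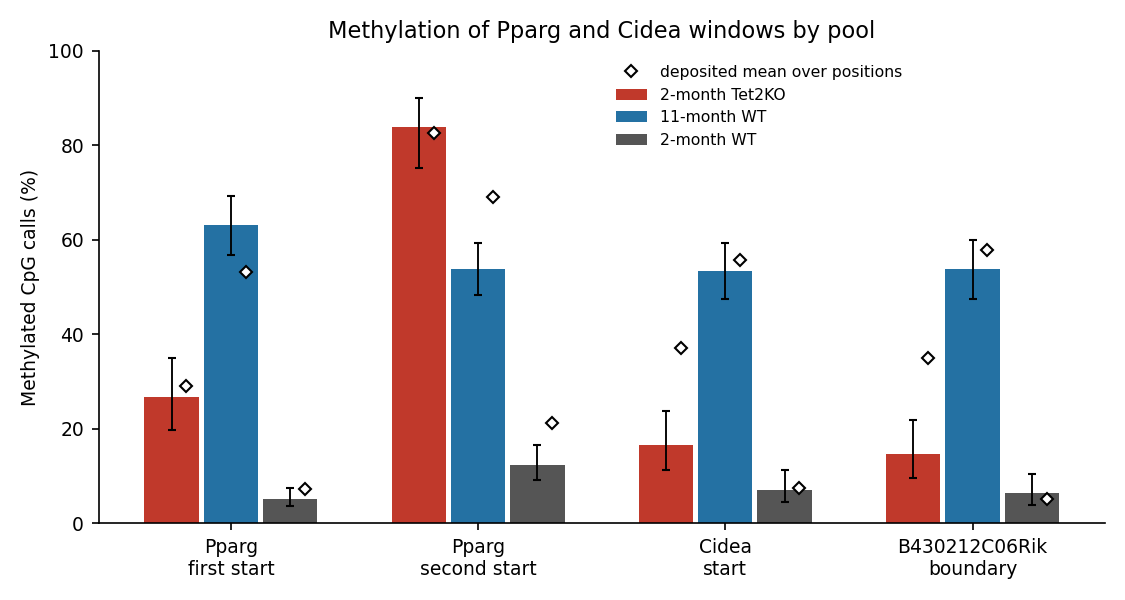
Percentage of CpG calls that were methylated in the windows at the 2 Pparg starts, at Cidea and at the boundary of B430212C06Rik, in 2-month Tet2KO, 11-month WT and 2-month WT oocytes. Bars are levels from pooled calls, error bars are Wilson 95% intervals of counting error, and diamonds are the deposited means over CpG positions; 2-month WT is lowest at every window, from 5.18% to 12.4%.

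The mean over CpG positions, which the authors deposited beside the calls, weights every covered CpG equally, whereas the call level weights deeply read CpGs more. At the first Pparg start this mean was 29.1% in Tet2KO, 53.1% in 11-month WT and 7.19% in 2-month WT. At the second start it was 82.7%, 69.1% and 21.1% in the same order. At Cidea it was 37.0% in Tet2KO, 55.7% in 11-month WT and 7.34% in 2-month WT. The order of the pools was the same by both measures at all 3 windows, but the Tet2KO level at Cidea was more than 20 points higher by the positional mean. A gap of that size or larger occurred at 54 of 40537 windows of the Tet2KO pool (0.133%), so methylated and unmethylated calls at Cidea were unevenly spread over its positions in that pool. In 11-month WT the gap at the second Pparg start was 15.2 points, reached at 152 windows (0.375%).

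Both windows of Pparg share a stretch of 659 bp, and each has 1341 bp of its own. The sources used here do not say how calls were assigned to windows. If a call in the shared stretch counts in both windows, the counts limit what the stretches outside it can hold. In Tet2KO at least 76 unmethylated calls lay in the upstream stretch alone and at least 45 methylated calls in the downstream stretch alone. The upstream stretch was therefore at most 30.3% methylated in Tet2KO, and the downstream stretch, which holds the second start, at least 75%. In 11-month WT the downstream stretch lay between 12.3% and 74.4%, and the counts put no limit on the upstream stretch. In 2-month WT the upstream stretch was at most 10.3%, and the downstream stretch could lie anywhere from 3.60% upwards. These limits follow from the pooled counts on that assumption and carry counting error in addition. The level of the second window minus that of the first was 57.3 points in Tet2KO, -9.31 in 11-month WT and 7.24 in 2-month WT. By the positional mean the 11-month value was 16.1 points, so the order of both starts in 11-month WT depends on the measure.

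**Figure D2:**
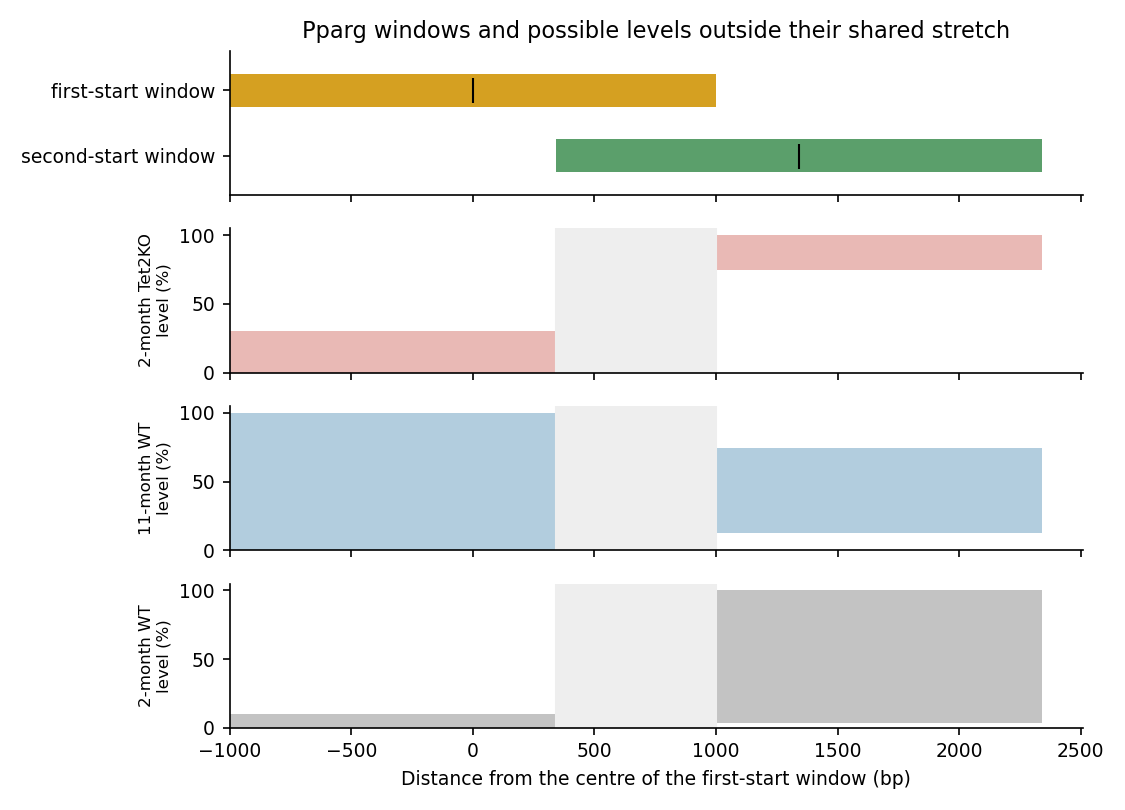
Position of the 2 Pparg windows relative to the centre of the first (bp, top; ticks mark the window centres) and, for 2-month Tet2KO, 11-month WT and 2-month WT, the range of methylation levels (%) that the counts allow in the stretch belonging to each window alone. The ranges assume that calls in the shared stretch, drawn in grey, count in both windows. In Tet2KO the allowed ranges end at 30.3% upstream and begin at 75% downstream.

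The comparison of Tet2KO with WT oocytes of the same age asked where promoter methylation differs with loss of Tet2. Tet2KO was higher than 2-month WT by 71.5 points at the second Pparg start (Newcombe 95% interval 61.7 to 78.4) and by 21.4 points at the first (14.1 to 29.98). At Cidea the difference was 9.43 points (2.67 to 17.1) by calls and 29.7 points by the positional mean, on either side of the 20 points used here as a threshold. By calls 2 of the 3 windows passed it. Over 40537 nuclear windows shared by the pools, 6.51% were 20 points or more apart in these pools, 3.29% with Tet2KO higher and 3.22% with it lower, and the median difference was -0.241 points. Since the genes were picked for such values, nothing is read from that count. A difference as high as that of the second Pparg start or higher occurred at 62 windows (0.153%).

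The same was asked of maternal age by setting 11-month against 2-month WT oocytes. The 11-month pool was higher by 58.0 points at the first Pparg start (51.3 to 64.2), by 41.5 points at the second (34.5 to 47.8) and by 46.3 points at Cidea (39.0 to 52.8). All 3 windows passed 20 points, against a background of 5.54% of windows, 2.78% higher and 2.76% lower, and a median difference of 0 points. Here too the genes were picked for such values, so nothing is read from that count. The 2 Pparg windows also overlap. Differences as high or higher were found at 95 windows for the first Pparg start, 275 for the second and 197 for Cidea. Both comparisons use the same 2-month WT pool, so a deviation of that pool would enter both. Windows 20 points or more above it in both other pools made up 1.49% of all, and both Pparg windows were among them.

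Tet2KO and 11-month WT, which differ in age and genotype, differed in opposite directions within Pparg. Tet2KO minus 11-month WT was -36.6 points at the first start (-45.8 to -26.0), where Tet2KO was lower, and 29.97 points at the second (19.6 to 38.2), where it was higher. At Cidea the difference was -36.9 points (-44.9 to -27.5). By the positional mean the directions were the same, at -24.0 points for the first Pparg start, 13.5 for the second and -18.6 for Cidea. The values of the second start and of Cidea were then under 20 points. In this comparison 4.03% of windows were 20 points or more apart, with 2.09% higher and 1.94% lower in Tet2KO.

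**Figure D3:**
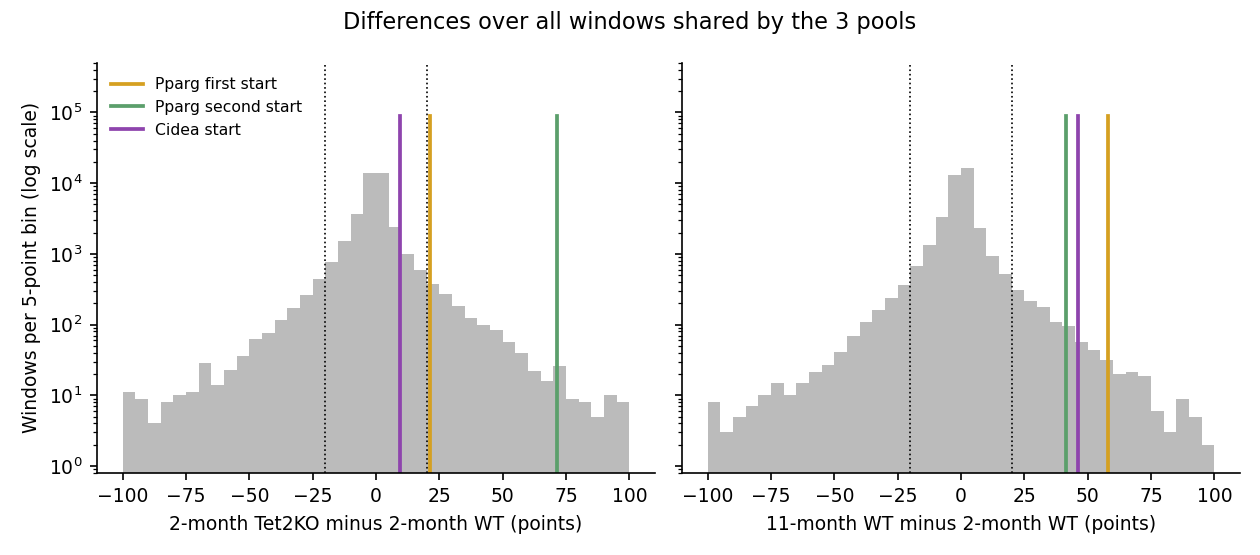
Number of windows (log scale) by difference in methylation, in percentage points, for 2-month Tet2KO minus 2-month WT (left) and 11-month WT minus 2-month WT (right). Coloured lines mark the Pparg and Cidea windows and dotted lines -20 and 20 points; all 3 windows lie right of 20 points at 11 months, from 41.5 to 58.0, and the second Pparg start lies at 71.5 in Tet2KO.

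These windows were rich in CpG positions for their level. With 66 to 99 covered positions in the pool that covered most, they belonged to 20487 windows with 60 or more. The median level of these CpG-dense windows was 1.49% (Tet2KO), 1.88% (11-month WT) and 2.19% (2-month WT). Levels of 50% or more were rare among them, at 1.95% of windows in Tet2KO, 1.97% at 11 months and 1.92% in the younger WT pool. The second Pparg start belonged to that minority in Tet2KO, and all 3 windows did in 11-month WT. In 2-month WT all 3 were above the 5% under which 71.5% of dense windows lay. Reading depth at the members was 2.18 to 2.96 calls per covered position in Tet2KO, 2.43 to 4.81 in 11-month WT and 3.46 to 5.46 in 2-month WT, where the medians over all windows were 2.04, 4.24 and 2.80. At Cidea the depths of the WT pools were 3.49 (11 months) and 3.46 (2 months), and at the second Pparg start 4.81 and 4.64. At the first Pparg start they were 2.43 (11 months) and 5.46 (2 months). The latter lies above 5.04, the 95th percentile of the 2-month WT pool. The part of depth in the differences between the WT pools was not tested. In Tet2KO depth was lower than in 2-month WT at all 3 windows, and its part in those differences was not tested.

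Apart from the B430212C06Rik window at 11 months, the windows around Pparg and Cidea stayed under 20 points from 2-month WT. Within 500 kb of Pparg lay 31 other windows, of which 0 were 20 points or more above or below 2-month WT in either pool. Over all shared windows 6.51% (Tet2KO) and 5.54% (11-month WT) were that far apart. A count of 0 among so few windows is near those shares, so nothing is read from it. The nearest named windows before Pparg were those of Timp4, an inhibitor of matrix proteases, and of Syn2, a synaptic vesicle protein, which shares its window with Gm17733. Timp4 was at 2.47% in Tet2KO, 0.826% in 11-month WT and 5.66% in 2-month WT, and Syn2 at 0.667%, 0.985% and 0.907%. After Pparg, Mkrn2, a ubiquitin ligase gene, was at 4.29%, 0.778% and 0%.

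Around Cidea, 19 windows other than those of Cidea and B430212C06Rik lay within 500 kb, and 0 differed from 2-month WT by 20 points or more. A count of 0 among so few windows is again near the share over all windows. The highest of their differences from 2-month WT was 13.4 points in Tet2KO, above the 9.43 points of Cidea by calls. At 11 months the highest was 13.3 points, below the 46.3 points of Cidea. The nearest before Cidea were Chmp1b, of the membrane-remodelling ESCRT-III complex, at 1.47% in Tet2KO, 1.26% in 11-month WT and 8.45% in 2-month WT, and Mppe1 and Impa2, an inositol monophosphatase. Mppe1 was at 3.35%, 1.76% and 0.787% in the same order of pools and Impa2 at 2.25%, 3.41% and 7.93%. Tubb6, a beta tubulin gene 47.2 kb after the Cidea start, was at 5.69% (404 calls) in Tet2KO, 16.98% (1019 calls) in 11-month WT and 4.52% (332 calls) in 2-month WT. It was thus highest at 11 months, as Cidea was, though by 12.46 points (Newcombe 95% interval 8.91 to 15.5). Afg3l2, a mitochondrial protease subunit, was at 0.984%, 0.580% and 0.545%.

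**Figure D4:**
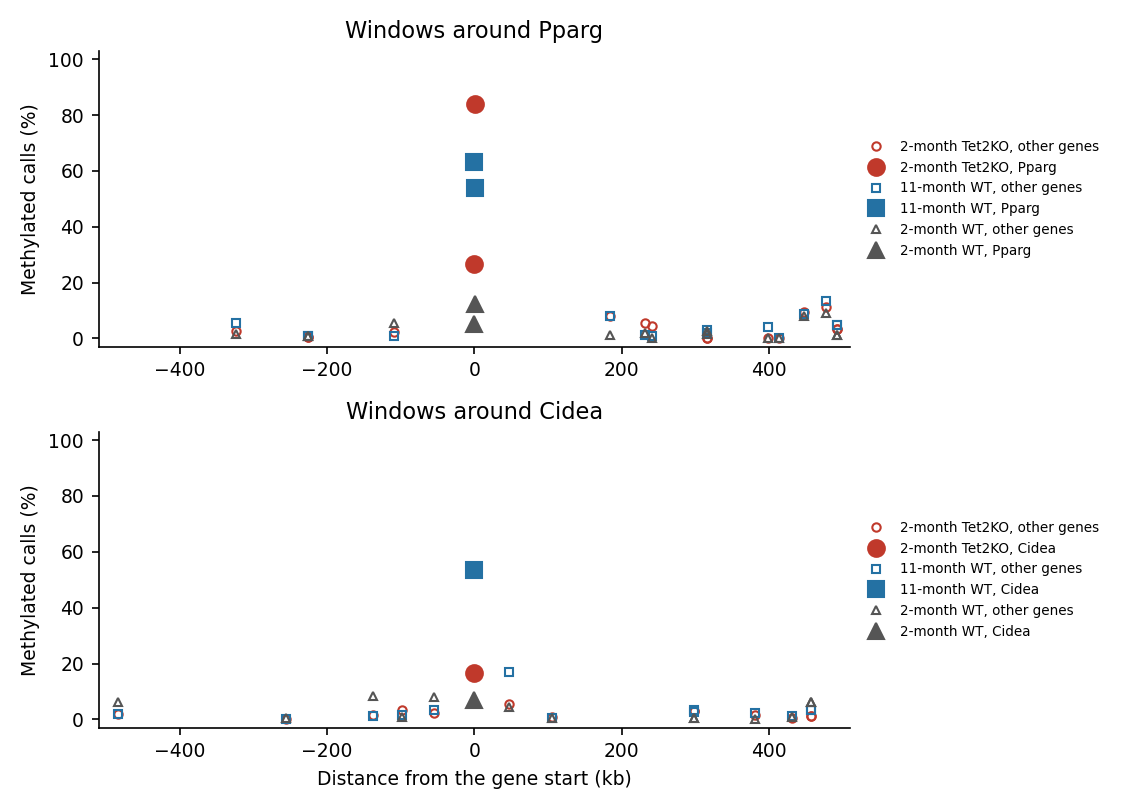
Methylation (%) of named windows within 500 kb of Pparg (top) and Cidea (bottom) against distance from the gene start (kb), for 2-month Tet2KO (circles), 11-month WT (squares) and 2-month WT (triangles); large filled symbols are Pparg and Cidea. The window of B430212C06Rik is not drawn; the nearest others stay under 10% in all pools apart from Tubb6 at 16.98% in 11-month WT, while Pparg reaches 83.9% in Tet2KO and Cidea 53.4% in 11-month WT.

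Other PPAR and fat cell genes passed 20 points about as often as windows in general. Of 74 genes in 5 lists, 66 had a shared named window, and each is given by the window whose least-read pool had the most calls. Against 2-month WT, 1 was higher and 3 were lower by 20 points in Tet2KO, and likewise 1 was higher and 3 lower at 11 months. Their median difference was -1.33 points in Tet2KO and -0.818 points at 11 months, beside -0.241 and 0 over all windows. Of all windows, 6.51% differed by 20 points either way in Tet2KO and 5.54% at 11 months.

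Among 14 measured PPAR and RXR receptors and coregulators, 1 was higher by 20 points in Tet2KO and 0 at 11 months. This was Rxrg, a retinoid X receptor and thus a possible DNA-binding partner of PPAR gamma, at 23.7% (59 calls) in Tet2KO, 1.91% (157 calls) in 11-month WT and 2.31% (173 calls) in 2-month WT. By the positional mean its Tet2KO level was 12.3%. The other PPAR genes, named for their kinship with Pparg, were under 20 points from 2-month WT by calls. Ppara, the PPAR of liver fatty acid oxidation, was at 28.0% in Tet2KO, 25.0% in 11-month WT and 14.2% in 2-month WT, and Ppard at 0%, 1.06% and 19.8%. By the positional mean Ppard was at 0%, 1.25% and 36.1%, past 20 points in both comparisons. Relative to 2-month WT, Ppara was thus higher and Ppard lower in both other pools.

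Of 12 measured adipogenic transcription factors, 0 were higher and 1 was lower by 20 points in either pool. Cebpd, which acts early in fat cell formation, was at 0.541% (185 calls) in Tet2KO, 1.61% (1364 calls) in 11-month WT and 24.3% (802 calls) in 2-month WT. By the positional mean it was at 0.917%, 2.22% and 17.3%, under 20 points in both comparisons. Of 17 lipid droplet and CIDE genes, 0 were higher and 1 lower in Tet2KO, and 1 was higher and 2 were lower at 11 months. Bscl2, the seipin gene of droplet formation, was at 32.4% in Tet2KO, 28.0% in 11-month WT and 65.2% in 2-month WT. Fitm1, a droplet-forming protein, was at 45.6%, 33.9% and 60.3% by calls, but at 42.6%, 45.5% and 45.6% by the positional mean. Plin2, the droplet coat protein found in many cell types, was at 33.3% (24 calls) in Tet2KO, 66.4% (125 calls) in 11-month WT and 37.4% (99 calls) in 2-month WT. Like Cidea, Plin2 was highest at 11 months by both measures.

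The relatives of Cidea, named for that kinship, differed by less than 20 points between pools by calls. Cideb, of liver lipoprotein secretion, was at 85% (20 calls) in Tet2KO, 100% (26 calls) in 11-month WT and 95.8% (24 calls) in 2-month WT. By the positional mean Cideb was at 70%, 100% and 97.2%, so that Tet2KO was past 20 points from both WT pools. Cidec, of white fat droplets, was at 3.45%, 2.14% and 4.76% in that order of pools. Of 17 measured PPAR targets and fat cell genes, 0 passed 20 points in either pool, with differences between -16.3 and 6.67 points in Tet2KO and between -17.3 and 18.9 points at 11 months. Of 6 brown fat genes, 1 was lower in Tet2KO: Cox7a1, a respiratory chain subunit, at 68.75% (16 calls) in Tet2KO, 88.2% (93 calls) in 11-month WT and 90.6% (64 calls) in 2-month WT. By the positional mean Cox7a1 was at 80.8%, 87.1% and 87.2%, under 20 points. No brown fat gene measured passed 20 points at 11 months.

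**Figure D5:**
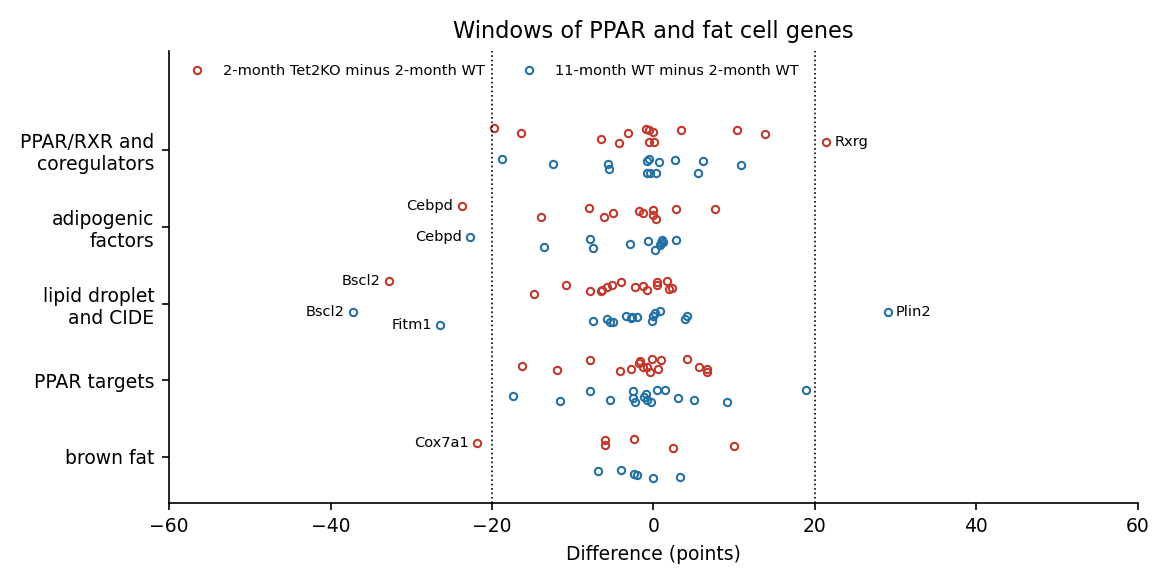
Difference in methylation from 2-month WT (percentage points) for windows of genes in 5 PPAR and fat cell lists, 2-month Tet2KO in red above 11-month WT in blue; the vertical spread within a row has no meaning. Dotted lines mark -20 and 20 points, and named genes lie beyond them; Rxrg at 21.4 in Tet2KO and Plin2 at 29.0 at 11 months are the points on the right.

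The genes most like each member were sought among 11302 symbols with at least 50 calls in every pool, by Euclidean distance between their levels over the 3 pools. Nearest to the first Pparg start were Csrp1 (5.74 points away), Tmtc2 (9.46), Sorl1 (13.3), Nlgn1 (14.2) and Angptl8 (15.1). Csrp1 was at 30% in Tet2KO, 61.7% in 11-month WT and 9.57% in 2-month WT. For Cidea the nearest were Nlgn1 (7.32 points), Trim72 (11.1), Tmtc2 (11.2), Sema4a (15.0) and Emc9 (15.4), with Nlgn1 at 16.1%, 55.1% and 0%. Tmtc2 and Nlgn1 appear for both. The second Pparg start had 0 genes within 10 points, and its nearest were Urad (11.7), Gstp1 (15.5), Madcam1 (16.4), Rgs9 (18.4) and Arpin (21.9). Urad was at 77.8% in Tet2KO, 47.1% in 11-month WT and 5.05% in 2-month WT. With only 3 pooled values per gene, such likeness is a description of levels.

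A window inside Pparg, centred 42925 bp from the nearest RefSeq start, was listed for 2 pools only. The submitters list it under an Ensembl transcript, so it may mark a further start that RefSeq lacks. As starts were taken from RefSeq, it was not counted as a member. It was at 0% (11 calls) in Tet2KO and 25% (12 calls) in 11-month WT, and at that depth the Newcombe interval of the difference ran from -53.2 to 5.49 points.

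As to the pools as a whole, the tables held 8610762 calls for Tet2KO, 30431118 for 11-month WT and 15046863 for 2-month WT, with medians of 79, 245 and 131 calls per shared window, at which 0 methylated calls allow levels of up to 3.80%, 1.22% and 2.29%. The oocyte identity was checked on 12 measured maternally methylated imprinted genes, which are marked in eggs, and their median was 94.0% in Tet2KO, 95.5% in 11-month WT and 96.1% in 2-month WT. Grb10 at 1.49%, 2.33% and 2.38% and Inpp5f at 0.658%, 0.424% and 1.04% were low in every pool, and Peg10 was intermediate at 67.9%, 70.1% and 65%. Each gene is given by 1 window, chosen by its calls and not by where its mark lies. A low level there thus does not show that the mark was missing. The 4 paternally methylated genes had medians of 1.42%, 1.97% and 2.11%, with Meg3 the exception at 23.4% in 2-month WT, against 2.22% in Tet2KO and 6.67% in 11-month WT. CpG-dense windows in general had medians of 1.49%, 1.88% and 2.19%, so medians this low do not check oocyte identity. The 6 measured cumulus and granulosa genes had medians of 1.67% in Tet2KO, 2.34% in 11-month WT and 8.82% in 2-month WT. Against 2-month WT, 1 was higher and 4 were lower in each of the other pools. Ptx3 was at 0%, 1.93% and 20.4%, past 20 points by calls in Tet2KO only. By the positional mean it was at 0%, 2.25% and 29.98%, past 20 points in both comparisons. Lhcgr went the other way, at 28.1% in Tet2KO, 15.8% in 11-month WT and 10.5% in 2-month WT. Amh was at 93.3%, 94.0% and 97.5%. Such levels do not count cumulus cells. The Tet2 window with most calls was at 2.87% in Tet2KO, 7.12% in 11-month WT and 14.0% in 2-month WT, which does not check the genotype.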

How the data were processed

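Low-input bisulfite libraries of mouse oocytes were made, per the labels' protocols. Bisulfite calls do not separate methylcytosine from hydroxymethylcytosine. The submitters' processing notes name Trimmomatic, Bismark (version field 12.5) and build mm10; how reads were deduplicated and calls assigned to windows is not given in the sources used here. Values are pooled per group: deposited counts of methylated calls, the deposited coverage (all CpG calls), the number of covered CpG positions, and a deposited fraction that averages over those positions. Listed windows have at least 10 calls and 5 positions. The 2-month WT table ends in an incomplete line on chromosome X.

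Levels were computed as 100 times methylated over all calls (Python 3.11.15, pandas 2.3.3, scipy 1.17.1), over nuclear windows listed for all 3 pools. Pooled values allow no test across libraries. Wilson and Newcombe 95% intervals were run on simulated independent calls, the model that they assume. That run checks the computation only and does not cover PCR copies or neighbouring CpGs of a read. Windows were named by RefSeq starts within 200 bp, or by gene boundaries where the promoter table has no entry (18424 symbols). Members and lists were chosen with earlier results of these data known. Named genes were the members, the 3 nearest symbols on each side within 500 kb, list members 20 points apart (at most 4 per list and comparison) and the 5 most alike symbols; Ppara, Ppard, Cideb, Cidec and Tet2 were added after their values were seen. Some neighbouring genes that this rule names are not reported here. Alternatives used the deposited fraction, exact intervals, other call minima, thresholds, distances and window sets.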

Additional observations from a re-analysis of the deposited data

How the results depend on the processing

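By the deposited fraction the differences kept their direction at all 3 windows, but 7 of 9 moved outside the counting interval. Tet2KO minus 2-month WT was 61.6 points at the second Pparg start and 29.7 at Cidea. The 11-month minus 2-month WT difference was 45.9 points at the first and 48.0 at the second Pparg start. Tet2KO minus 11-month WT was -24.0 points at the first start, 13.5 at the second and -18.6 at Cidea, under 20 points at the second start and at Cidea. Levels that moved were 53.1% (first start) and 69.1% (second start) in 11-month WT, 21.1% at the second start in 2-month WT and 37.0% at Cidea in Tet2KO. The second minus the first Pparg start in 11-month WT reversed to 16.1 points. Exact Clopper-Pearson bounds of the levels lay within 0.707 points of the Wilson bounds.

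A distance of 50 bp left 1 window, that of Cidea, and 1000 bp gave 4, adding that of B430212C06Rik. Windows 20 points apart either way numbered 2639 for Tet2KO against 2-month WT, 2246 for 11-month against 2-month WT and 1635 for Tet2KO against 11-month WT. With at least 50 calls they numbered 753, 680 and 302, at 10 points 6557, 5718 and 4665, and at 30 points 1277, 1102 and 742. With at least 20 calls they numbered 1689 for Tet2KO against 2-month WT and 951 for Tet2KO against 11-month WT. The first Pparg start was left out among windows of high calls per position, as its depth in 2-month WT exceeded the 95th percentile of that pool. With all windows of the PPAR and fat cell lists, 7 windows against 4 genes passed 20 points for Tet2KO against 2-month WT and 5 against 2 for Tet2KO against 11-month WT. The construction of these counts (fewer or more windows, another threshold) changes them; the cause of the shifts under the deposited fraction was not tested. A call minimum also lowers the number of windows tested, which is not given for these settings. The counts are therefore not shares, and their fall says nothing of the windows left out.

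No paired analysis was possible because the deposited tables hold 1 pooled value per group, and leaving out single libraries was not run for the same reason. Depth limits the Tet2KO pool most, with 93 to 133 calls on 37 to 57 positions per member window.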
